A study of Mus musculus with 9 samples.

Results

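A non-degradable and a degradable hydrogel, both synthetic and made from polyethylene glycol (PEG), were compared directly as homes for mouse intestinal stem cells. The comparison was chosen by the gel named on each library's label, so it used 6 of the series' 9 RNA libraries, 3 from non-degradable PEG and 3 from degradable PEG. The other 3 libraries came from Matrigel, a gel of natural basement membrane proteins, and served here only to share the estimate of spread and as a reference level. Messenger RNA was sequenced after 4 days of culture, during which dissociated stem cells grew into colonies in the gels. The medium was the same for every group and held R-spondin and CHIR99021, which raise Wnt signalling, noggin, which blocks BMP signalling, EGF and the histone deacetylase inhibitor valproic acid. The labels name no mouse strain, age, sex or genotype, and they give neither the crosslinks, the stiffness nor the adhesion ligands of either gel. The question was which genes go with gel degradability when both gels are synthetic. Nothing in the labels says that the replicates came from separate cultures or animals, so the p-values measure only the spread between these libraries, which may be technical.

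Intestinal stem cells sit at the base of the crypts, divide under Wnt and EGF signals and give rise to absorptive enterocytes and to secretory Paneth, goblet and enteroendocrine cells. A cell in a dense gel can make room for itself only if the gel yields, and gels called degradable usually carry crosslinks that proteases released by the cells can cut. Cells under load from their surroundings are known to reorganise actin, and actin assembly in turn frees coactivators of the serum response factor SRF, while stretch and shape act on the YAP and TAZ coactivators.

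The 6 PEG libraries were of similar size. In composition, too few libraries were at hand to show that the gels were alike. A library held 38060529 to 44816344 reads assigned to genes in non-degradable PEG and 38016227 to 39187379 in degradable PEG. Reads from mitochondrially encoded genes made up 4.19% ± 0.297 (SD, n = 3) and 3.78% ± 0.607 (SD, n = 3), with an exact two-sided permutation p = 0.4, where 3 against 3 libraries allow no p below 0.1. Summed levels of 10 epithelial markers, in counts per 1000000 reads after scaling (CPM), were 6444 to 7611 and 6778 to 7541. Of 12 mesenchymal and smooth muscle markers, summed at 84.5 to 119 CPM and 93.0 to 159 CPM, Col3a1, Dcn and Lum were at 0 in all 6 libraries. Vim made up most of these sums, at 76.8, 82.1 and 110 CPM in non-degradable and 87.4, 140 and 149 CPM in degradable PEG. The 9 blood cell markers summed to 4.55 to 6.26 CPM in non-degradable PEG and 4.10 to 4.45 CPM in degradable PEG, with Ptprc, Adgre1 and Hbb-bs at 0. The 6 endothelial markers, with Cdh5 and Emcn at 0, summed to 1.40 to 1.58 CPM and 1.34 to 1.71 CPM, and the 7 markers of glia and neurons, with Sox10 among those at 0, to 1.44 to 1.85 CPM and 1.66 to 2.68 CPM. The part of these cell types in the results was not tested. Over 14870 tested genes, the Pearson correlation between libraries was 0.991 to 0.995 within a gel and 0.986 to 0.992 between the gels.

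The first principal component of the 6 libraries held 36.7% of the variance and placed the non-degradable libraries at 17.3, 16.8 and 22.3 and the degradable ones at -15.4, -28.7 and -12.3. The second held 29.4% and ran across both gels, with the third replicate of each at its low end. The gels were separate on the first axis, and the spread on the second axis among libraries of a single gel was of similar size.

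**Figure D1:**
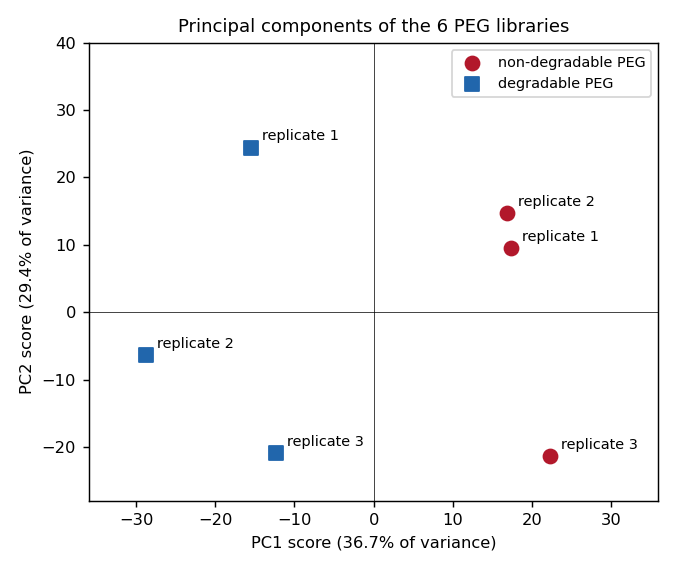
Principal component scores of the 6 PEG libraries from centred log2 CPM of all tested genes, with component 1 (36.7% of the variance) on the horizontal axis, component 2 (29.4%) on the vertical axis and 1 point per library. All 3 non-degradable libraries (circles) lie to the right of 0 and all 3 degradable libraries (squares) to the left, while component 2 spreads libraries of both gels.

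Of the gene groups examined, enterocyte genes (10 of 24 tested) and enzymes for foreign compounds (15 of 30) held the most that rose in the non-degradable gel. Those with the most that fell there were genes of the NF-kB response (7 of 24) and of actin with its regulator SRF (5 of 24), and most members of these 2 groups did not pass the test. In the edgeR quasi-likelihood test with Benjamini-Hochberg adjustment, 190 of 14870 genes passed an adjusted p under 0.05, which is 1.28%. Of these, 121 (0.814% of the genes tested) rose in non-degradable relative to degradable PEG and 69 (0.464%) fell. The log2 fold change, always non-degradable minus degradable, had a median of 1.03 among those that rose and -0.72 among those that fell, against 0.0033 over all tested genes, of which 50.7% were above 0. A change of at least 2-fold was seen in 62 of the genes that rose and 25 of those that fell, and one of at least 4-fold in 18 and 6. The 3 libraries of each gel did not overlap for any of the 190 genes. Without overlap were also 19% of all tested genes, 10% with non-degradable PEG higher and 9.02% with it lower, and 14.8% of all tested genes had an unadjusted p under 0.05.

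The number of genes called rested on single libraries. Without non-degradable replicate 1 it was 28 (0.185% of 15109 genes tested), and without degradable replicate 2 it was 19 (0.126% of 15102), of which 4 rose and 15 fell. It was 117 without degradable replicate 1 and 124 without non-degradable replicate 2. Without non-degradable replicate 3 the balance turned, with 51 genes that rose and 92 that fell. A set of 12 genes passed the test whichever of the 6 PEG libraries was left out. Of these, Acta1, Nox1, Cfap43, Zyx, Iffo2, Casp4, Bok and Ccdc3 fell and Akr1c19, St3gal4, Enpep and Nts rose. They were named after their values were seen.

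**Figure D2:**
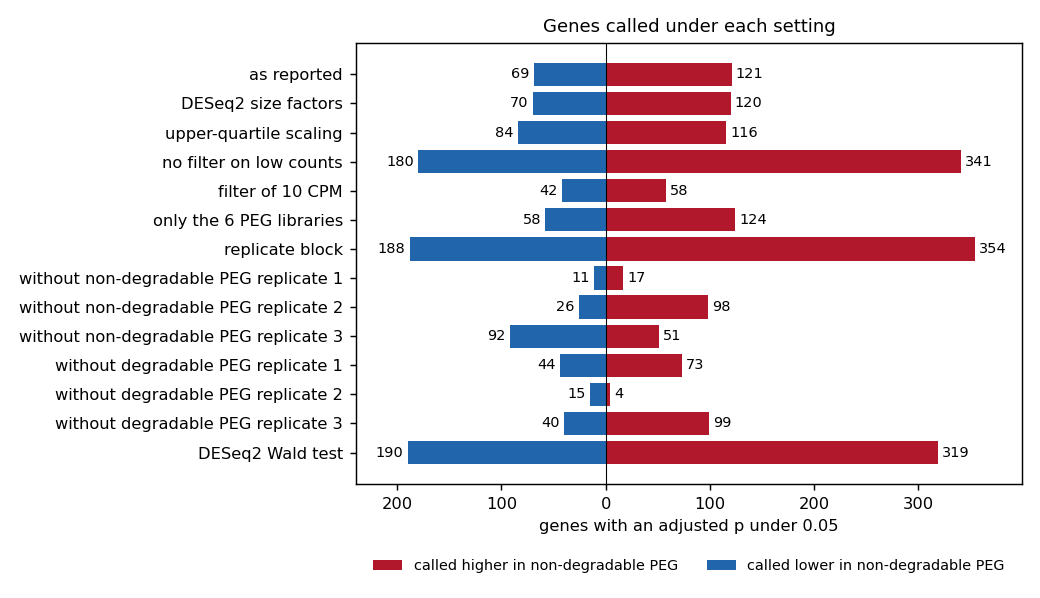
Number of genes with an adjusted p under 0.05 under each setting of the analysis, with genes higher in non-degradable PEG to the right of 0 and genes lower there to the left. The reported fit gives 121 and 69 genes, and leaving out non-degradable replicate 1 or degradable replicate 2 gives the shortest bars.

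**Figure D3:**
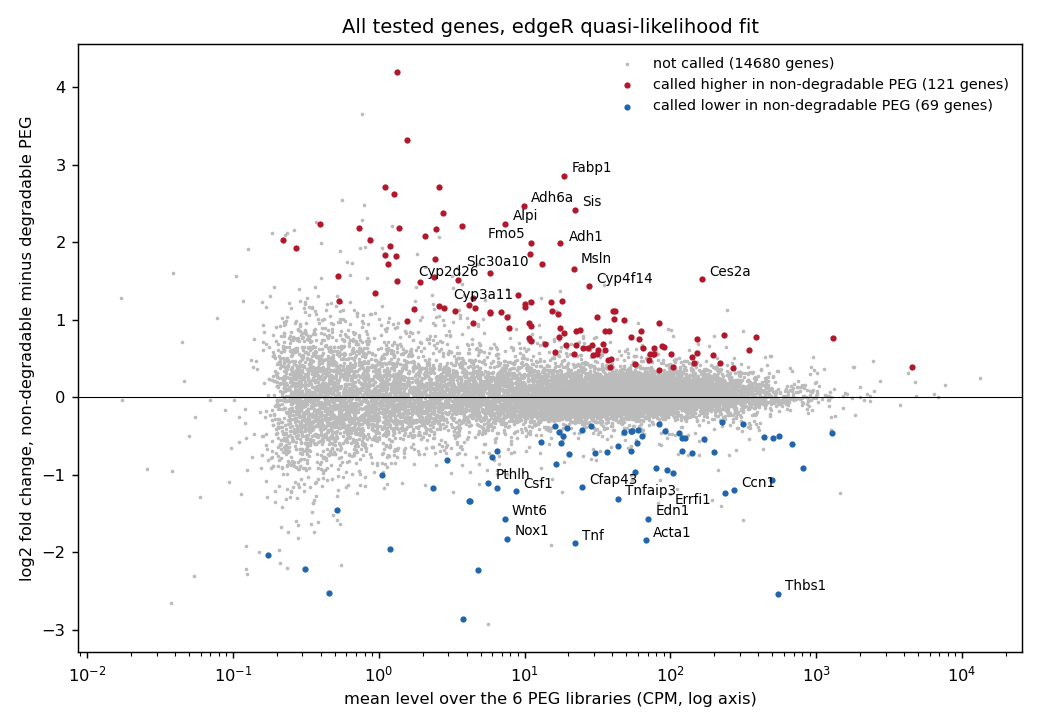
Log2 fold change of every tested gene, non-degradable minus degradable PEG, against its mean level over the 6 PEG libraries in CPM on a log axis, with 1 point per gene. The 121 called genes above 0 and the 69 below 0 are coloured, and the 12 leading genes of each direction are labelled.

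Genes of the mature enterocyte, the absorptive cell of the villus, were prominent on the higher side. Of 24 tested members of a list of enterocyte and brush border genes, 10 rose and none fell. The median log2 fold change of the list was 0.77, and 23 of the 24 were above 0. The mean log2 CPM of the list was 4.66 to 5.22 in the 3 non-degradable libraries and 3.67 to 4.10 in the 3 degradable ones. In RNA from whole colonies, more enterocyte-like cells and more RNA per cell cannot be told apart. Fabp1 (ENSMUSG00000054422, chr6:71199827-71205023 on GRCm38), which binds fatty acids inside enterocytes, stood at 36.6, 21 and 40.5 CPM in non-degradable replicates 1 to 3 and at 6.44, 2.8 and 4.37 CPM in degradable replicates 1 to 3. All 3 non-degradable libraries were far above the highest degradable one. Its log2 fold change was 2.85 ± 0.44 (SE), with an adjusted p of 0.0152.

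Sis (chr3:72888557-72967863) encodes sucrase-isomaltase, which splits disaccharides at the brush border. It was at 38.8, 23.6 and 48.7 CPM in the non-degradable libraries and 10, 4.03 and 6.85 CPM in the degradable ones, a log2 fold change of 2.41 ± 0.37 with an adjusted p of 0.0152. The lowest non-degradable library was still above the highest degradable library. Alpi (chr1:87098002-87101606), the intestinal alkaline phosphatase, was at 12.8, 6.43 and 17.3 CPM and 2.92, 2.33 and 2.51 CPM, with a log2 fold change of 2.24 ± 0.37 and an adjusted p of 0.0202. The degradable libraries were close together, and the non-degradable ones differed more among themselves. Its neighbour and near copy Akp3 rose too, to 2.75, 0.508 and 4.4 CPM against 0.105, 0.0742 and 0.233 CPM (adjusted p 0.0333), but at such levels and with such similar sequences reads may be shared between them.

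Further enterocyte genes rose by less. Krt20, a keratin of differentiated surface cells, was at 46.4, 41.2 and 59.9 CPM against 24.6, 25.3 and 31.8 CPM (log2 fold change 0.85 ± 0.14, adjusted p 0.0211). Mep1b, a subunit of the brush border protease meprin, was at 40.3, 41.3 and 45.9 CPM against 25.2, 25.9 and 28.1 CPM (adjusted p 0.0109). Mttp, which loads lipid onto apolipoprotein B, was at 291, 256 and 348 CPM against 167, 149.8 and 196 CPM (adjusted p 0.0152). In each of these the gels did not overlap. Apoa1, an apolipoprotein of secreted lipid particles, was measured near 1 CPM, at 2.14, 1.35 and 2.27 CPM and 0.368, 0.272 and 0.233 CPM (adjusted p 0.0147). Cdhr2, a cadherin that links microvilli, rose as well. Vil1, which bundles the actin of microvilli, was at 613, 603 and 707 CPM and 586, 672 and 666 CPM, and its groups overlapped (adjusted p 0.997). Without degradable replicate 2 no member of the list passed the test, and without non-degradable replicate 1 only 1 did. The calls of Fabp1 and Sis were lost without either of these libraries, with adjusted p up to 0.0966 and 0.0827, and that of Alpi also without degradable replicate 3 (up to 0.117).

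Enzymes that modify drugs, toxins and other foreign compounds formed a second group. Of 30 tested members of the list, 15 rose and none fell, the median log2 fold change was 0.79 and all 30 were above 0. The mean log2 CPM of the list was 4.88 to 5.01 in non-degradable PEG and 3.93 to 4.12 in degradable PEG. Ces2a (chr8:104734003-104741634), a carboxylesterase of the intestine and liver, was at 267, 220.2 and 243 CPM in the non-degradable and 93.2, 82.2 and 79.6 CPM in the degradable libraries. Every non-degradable library was far above every degradable one. Its log2 fold change was 1.52 ± 0.24, with an adjusted p of 0.0159.

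The flavin monooxygenase Fmo5 (chr3:97628804-97655282) was at 17.3, 12.7 and 23.3 CPM against 4.52, 3.24 and 5.71 CPM (log2 fold change 1.98 ± 0.26, adjusted p 0.0111). Adh6a, an alcohol dehydrogenase, was at 15.1, 10.2 and 25 CPM against 3.5, 1.83 and 3.8 CPM (log2 fold change 2.47 ± 0.36, adjusted p 0.0145). Its neighbour Adh1 was at 32.1, 19.2 and 33 CPM against 7.97, 5.49 and 7.86 CPM (log2 fold change 1.98 ± 0.39, adjusted p 0.0352). Both alcohol dehydrogenases were lowest in non-degradable replicate 2 among the non-degradable libraries and still higher there than in any degradable library. Cytochromes P450, which oxidise foreign compounds and lipids, gave 3 of the leading genes. Cyp4f14 was at 41.4, 31.3 and 48.4 CPM against 14.8, 13.4 and 16.8 CPM (log2 fold change 1.43 ± 0.20, adjusted p 0.0133). Cyp2d26 was at 9.91, 5.74 and 10.6 CPM against 2.58, 2.97 and 3.1 CPM (adjusted p 0.0315). Cyp3a11 was at 13.7, 12.3 and 12.7 CPM against 5.57, 4.63 and 5.32 CPM (adjusted p 0.0352). The 3 libraries of each gel lay close together for Cyp3a11. Ugt2b34, which couples compounds to glucuronic acid, was at 461, 452 and 543 CPM against 277, 240.1 and 331 CPM (log2 fold change 0.78 ± 0.11, adjusted p 0.0145). Many of these genes have near-identical neighbours in the Ces2, Cyp2c, Cyp2d, Cyp3a and Ugt2b clusters, so the split of reads between copies is uncertain. Without degradable replicate 2 none of the 15 passed the test, and without non-degradable replicate 1 only 3 did. The call of Cyp3a11 was lost without any single library (adjusted p up to 0.171). Those of Adh1 and Cyp2d26 held only without non-degradable replicate 2, with adjusted p otherwise up to 0.179 and 0.143, while those of Fmo5 and Adh6a were lost only without degradable replicate 2 (0.0596 and 0.0783).

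**Figure D4:**
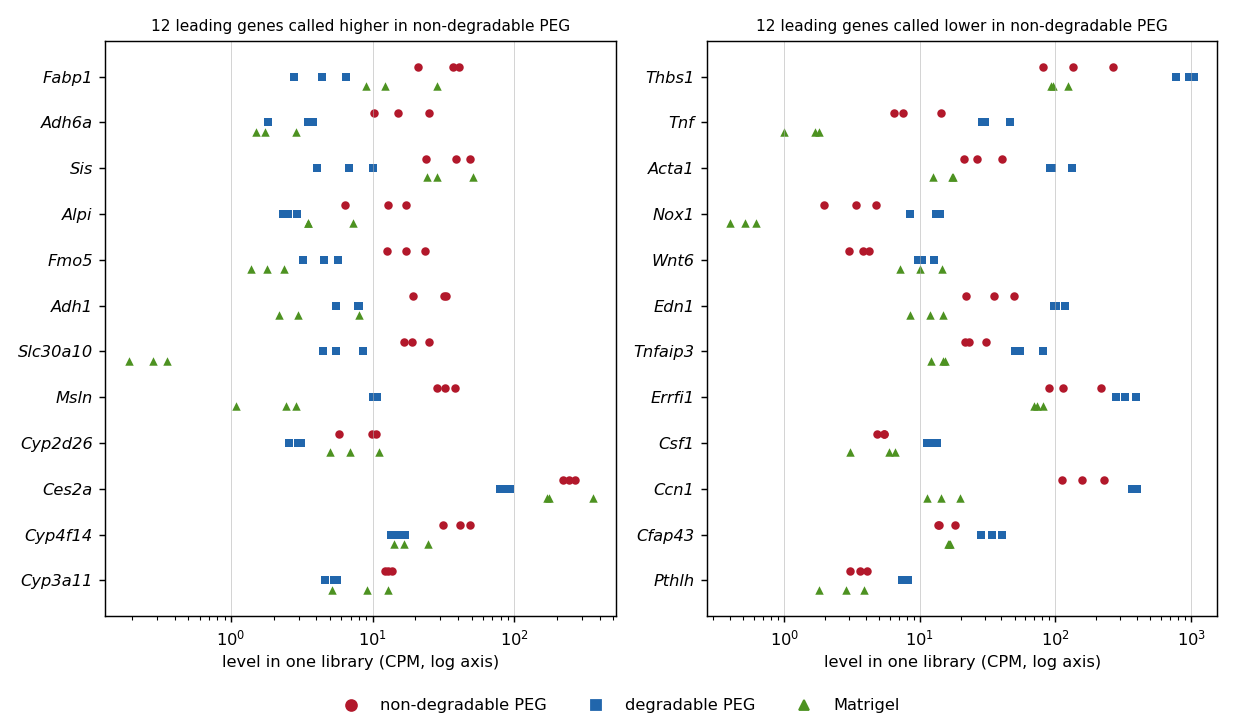
Level in every library, in CPM on a log axis, of the 12 genes with the highest and the 12 with the lowest log2 fold change among called genes whose mean reached 5 CPM. Circles are non-degradable PEG, squares degradable PEG and triangles Matrigel, with 1 symbol per library. Only genes whose circles and squares do not overlap could be chosen, so their separation comes from the rule. The triangles fall on either side of or between them.

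Promoters from the RefSeq table (GRCm38.p6) were searched for 8 motifs over the 250 bases before the start, on both strands, and a gene was counted once if any of its promoters held the letters. All 8 were picked with the calls known. The letters CAAAGTCCA, a core of the element bound by HNF4, a nuclear receptor that drives enterocyte genes, stood before 6 of the 96 genes that rose and had a promoter in the table (6.25%). They stood before 1 of 58 genes that fell (1.72%) and before 52 of 10793 tested genes (0.482%). These 6 were Alpi, Cyp3a11, Cyp2c65, Cyp2c68, Slc3a1 and Ptpn22. A match is a description of letters, not of binding. Windows of 4 of them, picked as examples after the calls were seen, follow with the matched letters in capitals. They lie at chr1:87101607-87101660 (minus strand, Alpi), chr5:145879920-145879998 (minus strand, Cyp3a11), chr19:39060855-39060933 (plus strand, Cyp2c65) and chr17:85028273-85028346 (plus strand, Slc3a1), and each is printed along its gene's strand.
Alpi: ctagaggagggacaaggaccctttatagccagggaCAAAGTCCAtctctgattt
Cyp3a11: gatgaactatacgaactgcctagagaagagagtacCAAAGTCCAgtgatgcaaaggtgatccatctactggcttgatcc
Cyp2c65: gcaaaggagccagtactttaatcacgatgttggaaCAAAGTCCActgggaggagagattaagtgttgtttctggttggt
Slc3a1: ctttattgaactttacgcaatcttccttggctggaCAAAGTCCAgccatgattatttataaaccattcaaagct
Cyp2c65, a cytochrome P450 chosen after its values were seen, was at 24, 19.1 and 25.8 CPM in non-degradable and 12.3, 9.75 and 10.9 CPM in degradable PEG (adjusted p 0.0218). Slc3a1, part of a transporter of basic amino acids and cystine, was at 14.7, 11 and 16.4 CPM and 5.97, 6.51 and 5.82 CPM (adjusted p 0.0298).

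Lipid synthesis rose in 3 of 33 tested genes, with a median log2 fold change of 0.24 and 32 of 33 above 0. Higher without overlap were 17 of the 33 and lower 0, where 10% and 9.02% of all tested genes were. Scd1, a desaturase of fatty acids, was at 1612, 1391 and 1929 CPM against 927, 813 and 1172 CPM (log2 fold change 0.76 ± 0.14, adjusted p 0.0292). Its relative Scd2 was at 4940.2, 5008 and 5383 CPM against 3955, 3550.0 and 4257 CPM (adjusted p 0.0391). Lss, the cyclase that closes the sterol rings, was at 406, 353 and 490.2 CPM against 264, 239.7 and 319.9 CPM (adjusted p 0.0439). No member passed the test without either non-degradable replicate 1 or 3 or degradable replicate 1 or 2, with adjusted p of Scd1 up to 0.118. In the fit of the 6 PEG libraries alone none of the 33 passed, and under a filter of 10 CPM 1 did. Of 23 tested hypoxia response genes 21 were above 0, with a median of 0.45, but none passed. Ndrg1, a gene of low oxygen and of differentiation, was at 338, 229 and 445 CPM against 138, 122 and 207 CPM, separate between the gels, with an adjusted p of 0.0636. Leaving out degradable replicate 3 brought 6 of the hypoxia genes past the threshold, the DESeq2 Wald test 5, and the replicate block and the fit without a filter on low counts 9 each, all higher in non-degradable PEG. Among 19 glycolysis genes, with a median of 0.35, Gapdh alone passed. Its 24.2, 27.2 and 17.4 CPM against 13.4, 12.9 and 10.8 CPM (adjusted p 0.0229) are low for this gene, reads with several alignments were not counted, and copies of Gapdh lie across the genome, so its value is uncertain. Its call was lost in 4 of 6 fits without 1 library (up to 0.104), and it overlaps Iffo1 on the opposite strand. Ldha, which makes lactate, was at 2033, 1707 and 2411 CPM against 1276, 1529.7 and 1879 CPM (adjusted p 0.243).

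On the lower side, the leading gene above 5 CPM was Thbs1 (ENSMUSG00000040152, chr2:118111876-118127133), which encodes thrombospondin-1, a secreted matrix protein that can activate TGF-beta. It was at 134, 80.5 and 267 CPM in the non-degradable libraries and 1055, 779 and 959.9 CPM in the degradable ones. Even the highest non-degradable library, replicate 3, stood well below the lowest degradable library. The log2 fold change was -2.54 ± 0.34, with an adjusted p of 0.0111, and the call was lost without non-degradable replicate 1 (0.0534). Edn1 (chr13:42301476-42307990), the peptide hormone endothelin-1, was at 35.3, 21.9 and 49.5 CPM against 118, 97 and 101 CPM (log2 fold change -1.57 ± 0.25, adjusted p 0.0188). With Tgif1, a repressor of TGF-beta signalling, these were the 3 of 22 tested BMP and TGF-beta genes that fell, and the list's median was -0.06. Tgif1 was at 92.5, 91.8 and 105 CPM against 128, 147 and 125 CPM (adjusted p 0.0391), a call lost in 5 of the 6 fits that left out 1 library (up to 0.165). None of the 3 passed without non-degradable replicate 1. The call of Edn1 was also lost without degradable replicate 2, with an adjusted p of up to 0.0837.

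Among targets of YAP and TAZ few genes passed the test, with 2 of 21 that fell, none that rose and a median of -0.15. Without overlap 7 of the 21 were lower and 1 higher, where 9.02% and 10% of all tested genes were. The mean log2 CPM of the list was 3.95 to 4.14 in non-degradable and 4.15 to 4.24 in degradable PEG. Without degradable replicate 1 the median was 0.0078 and without degradable replicate 3 it was -0.07. Ccn1 (chr3:145646976-145649981), a secreted matricellular protein and YAP target, was at 156, 112 and 228 CPM against 397, 382 and 365 CPM, separate between the gels (log2 fold change -1.21 ± 0.23, adjusted p 0.033). Amotl2, which binds and restrains YAP, was at 23.3, 23.2 and 22.4 CPM against 44, 38.9 and 30.5 CPM (adjusted p 0.0402). The other well-known targets did not pass. Ccn2 was at 40.2, 52.2 and 45.5 CPM and 38.7, 50.6 and 33.7 CPM with overlapping groups (log2 fold change 0.16 ± 0.27, adjusted p 0.804). Ankrd1 was near 1 CPM, at 1.24, 1.88 and 2.11 CPM and 1.31, 1.24 and 0.982 CPM (adjusted p 0.304). The calls of Ccn1 and Amotl2 were each lost in 5 of the 6 fits that left out 1 library, with adjusted p up to 0.132 and 0.157.

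Actin and SRF target genes fell in 5 of 24 tested members, with none that rose and a median of -0.19. Acta1 (ENSMUSG00000031972, chr8:123891769-123894751), skeletal alpha-actin and a classical SRF target, was at 26.6, 21.1 and 40.5 CPM in the non-degradable libraries and 90.8, 132 and 94.8 CPM in the degradable ones. All 3 degradable libraries were far above the highest non-degradable one, replicate 3. Its log2 fold change was -1.85 ± 0.23, with an adjusted p of 0.0103. Zyx (chr6:42349630-42360213), zyxin, a protein of actin stress fibres and focal adhesions, was at 62.5, 58.7 and 74 CPM against 118, 142 and 115 CPM (log2 fold change -0.94 ± 0.11, adjusted p 0.00994). Srf itself (chr17:46548329-46556175) was at 92.9, 74.1 and 110.5 CPM against 143, 151 and 155 CPM (log2 fold change -0.69 ± 0.12, adjusted p 0.0211). The gels were separate for Acta1, Zyx and Srf. Flna, filamin A, which crosslinks actin, was at 352, 389 and 339.7 CPM against 549.8, 529.8 and 465 CPM (log2 fold change -0.51 ± 0.09, adjusted p 0.0257). Tpm1, tropomyosin 1, differed by less, at 275, 275 and 275 CPM against 352, 358 and 341 CPM (adjusted p 0.030), with little spread within a gel. Actb, the main cytoplasmic actin, overlapped between the gels at 1597, 1465 and 2011 CPM and 1757, 2131 and 2095 CPM (adjusted p 0.371), as did Vcl, vinculin, at 159.8, 173 and 187 CPM and 164, 152 and 186 CPM (adjusted p 0.828). Acta1 and Zyx were the 2 that passed in every fit without 1 library, with adjusted p up to 0.0431 for both. Srf was lost without non-degradable replicate 1 or degradable replicate 2 (up to 0.0883) and Flna in 4 of the 6 (up to 0.115). Acta1, Zyx and Srf overlap genes annotated on the opposite strand and are among 18 such genes of the 53 called ones that the naming rule gave, and the strand setting of the counting is not given in the sources used here. Others of the 18 are Thbs1, Edn1, Wnt6, Errfi1, Spry1, Axin2, Adh1, Lss, Mep1b and Nid1.

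SRF binds a sequence called the CArG box, which was searched in the same way. It stood before 7 of 21 genes of the actin and SRF list (33.3%), 4 of 58 genes that fell (6.90%), 1 of 96 that rose (1.04%) and 156 of 10793 tested genes (1.45%). The 4 that fell were Acta1, Srf, Rnd3 and Ncoa7. Known SRF targets were put in the actin and SRF list on purpose, so the list's share is set by that choice. Rnd3, a small GTP-binding protein that loosens actin stress fibres and was chosen after its values were seen, was at 48.7, 42.2 and 74 CPM against 103, 99.1 and 110.2 CPM (log2 fold change -0.92 ± 0.17, adjusted p 0.0315). The windows of 3 are shown because these genes fell and act on or in the actin cytoskeleton, with each box in capitals. They lie at chr8:123894804-123894883 (minus strand, Acta1), chr17:46556180-46556279 (minus strand, Srf) and chr2:51149167-51149246 (minus strand, Rnd3).
Acta1: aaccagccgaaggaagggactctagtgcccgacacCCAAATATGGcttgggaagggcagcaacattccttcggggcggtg
Srf: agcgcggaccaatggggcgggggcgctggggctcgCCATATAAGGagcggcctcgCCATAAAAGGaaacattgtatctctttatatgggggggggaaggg
Rnd3: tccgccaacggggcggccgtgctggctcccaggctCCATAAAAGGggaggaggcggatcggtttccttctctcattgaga
The Srf window holds 2 boxes and the others 1 each.

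Inflammatory genes controlled by NF-kB, a transcription factor of infection and stress responses, were lower in the non-degradable gel. Of 24 tested members 7 fell and none rose, with a median log2 fold change of -0.60, and the mean log2 CPM of the list was 2.98 to 3.61 in non-degradable and 3.84 to 4.18 in degradable PEG. Tnf (ENSMUSG00000024401, chr17:35199381-35202007), the cytokine tumour necrosis factor, was at 7.56, 6.43 and 14.4 CPM against 28.8, 30.2 and 46.2 CPM. The highest non-degradable library, replicate 3, was well below the lowest degradable one. The log2 fold change was -1.89 ± 0.29, with an adjusted p of 0.0152.

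Tnfaip3 (chr10:19000910-19015657), which encodes A20, an inhibitor induced by NF-kB, was at 21.5, 23 and 30.7 CPM against 50.6, 55.1 and 81 CPM (log2 fold change -1.31 ± 0.18, adjusted p 0.0128). Csf1, the macrophage growth factor, was at 4.86, 5.41 and 5.43 CPM against 11.3, 11.9 and 13.3 CPM (adjusted p 0.030). The chemokines, secreted attractants of white blood cells, were low in both gels. Cxcl2, chosen after its values were seen, was at 0.449, 0.635 and 1.63 CPM against 3.42, 5.81 and 10.9 CPM (log2 fold change -2.87 ± 0.55, adjusted p 0.0351). Cxcl5 was at 2.27, 2.26 and 2.68 CPM against 5.0, 6.85 and 6.38 CPM (adjusted p 0.0152). Cxcl10 and Ccl20 were the other 2 that fell. For all 7 the gels were separate, while the chemokine Cxcl1 was at 4.23, 3.68 and 11.3 CPM against 13.9, 22.8 and 35.5 CPM with an adjusted p of 0.0577. Nfkbia, the inhibitor that holds NF-kB in the cytoplasm, was at 48.6, 38.4 and 88.8 CPM against 112, 126 and 182 CPM (adjusted p 0.061). Rela, the main NF-kB subunit, fell by less, to 49.1, 48.5 and 55.8 CPM in non-degradable PEG against 64.8, 75.3 and 65.4 CPM in degradable PEG (adjusted p 0.0372, chosen after its values were seen). No list member passed without non-degradable replicate 1 and 1 passed without degradable replicate 2. The calls of Tnf and Cxcl5 were lost without either, with adjusted p up to 0.0837 and 0.0829, that of Tnfaip3 only without the former (0.0589), and that of Csf1 in 5 of 6 fits (up to 0.129).

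A sequence of the NF-kB type, searched in the same way by its 10-base consensus, stood before 11 of 18 genes of the inflammatory list (61.1%). It stood before 16 of 58 genes that fell (27.6%), 8 of 96 that rose (8.33%) and 1161 of 10793 tested genes (10.8%). The inflammatory list was made of genes known to go with NF-kB, so the list's share is set by that choice. The windows of Cxcl2, Cxcl10 and Casp4 are shown because these genes fell and carry it, with the matches in capitals. They lie at chr5:90903767-90903847 (plus strand, Cxcl2), chr5:92348948-92349083 (minus strand, Cxcl10) and chr9:5308721-5308848 (plus strand, Casp4).
Cxcl2: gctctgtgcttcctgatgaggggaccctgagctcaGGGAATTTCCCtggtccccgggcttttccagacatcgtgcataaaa
Cxcl10: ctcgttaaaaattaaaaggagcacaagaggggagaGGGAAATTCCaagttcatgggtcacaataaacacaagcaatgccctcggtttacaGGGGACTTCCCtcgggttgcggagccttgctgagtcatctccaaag
Casp4: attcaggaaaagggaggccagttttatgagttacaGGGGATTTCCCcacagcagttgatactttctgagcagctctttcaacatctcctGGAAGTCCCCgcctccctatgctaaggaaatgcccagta
Casp4 (chr9:5308828-5336783), an inflammatory caspase that senses bacterial lipopolysaccharide, was at 27.2, 27.6 and 28.5 CPM against 45.7, 49.7 and 41 CPM, with little spread within either gel. Its log2 fold change was -0.71 ± 0.09 (adjusted p 0.00994), and it passed in all 6 fits without 1 library (up to 0.0431). Cxcl10 was at 1.4, 0.965 and 2.66 CPM against 4.18, 8.78 and 10.8 CPM (adjusted p 0.0318).

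The other 5 motifs are given as shares of the genes that rose, the genes that fell and the tested genes. TGACTCA, bound by AP-1, stood before 10.4%, 6.90% and 4.06%. GGAATG, bound by the TEAD partners of YAP, stood before 13.5%, 25.9% and 12.9%, and ACGTG, the core of the hypoxia response element, before 9.38%, 12.1% and 24.9%. TGACGTCA, the CRE of cyclic AMP signalling, stood before 1.04%, 3.45% and 3.11%, and CTTTGA, a TCF sequence of Wnt signalling that can overlap the HNF4 letters, before 15.6%, 20.7% and 12.9%.

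Nox1 (chrX:134086421-134221956), the NADPH oxidase of the gut epithelium that makes superoxide, was at 4.73, 1.98 and 3.37 CPM against 14.1, 8.53 and 13.1 CPM. The gels were separate. Its log2 fold change was -1.83 ± 0.29 (adjusted p 0.0159), and it passed in all 6 fits without 1 library (up to 0.0431). It overlaps Arl13a and Cstf2 on the opposite strand. It was the only one of 12 tested epithelial defence genes that passed. Cyba, the membrane partner of Nox proteins chosen after its values were seen, was at 48.3, 37.6 and 54.2 CPM against 70.9, 74.6 and 66.7 CPM (log2 fold change -0.60 ± 0.12, adjusted p 0.0375). Gpx2, a glutathione peroxidase of the same tissue, was at 1097, 1117 and 1033 CPM against 1388, 1709.7 and 1378 CPM (adjusted p 0.0405). In the list of NRF2 and metallothionein genes it was the 1 of 24 that fell, and its call was lost in 4 of 6 fits (up to 0.14). The list itself leaned the other way, with a median of 0.15 and 19 of 24 above 0. Without overlap 12 were higher and 1 lower, where 10% and 9.02% of all tested genes were. In the fit of the 6 PEG libraries alone 4 members rose and none fell.

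Slc30a10 (chr1:185454848-185468762), a manganese exporter at the cell surface, was the 1 of these 24 that rose. It was at 18.9, 16.6 and 25 CPM in non-degradable PEG, 5.52, 4.45 and 8.48 CPM in degradable PEG and 0.282, 0.189 and 0.352 CPM in Matrigel, so both PEG gels were far above Matrigel and the non-degradable gel was the higher of the 2. The log2 fold change between the PEG gels was 1.71 ± 0.23 (adjusted p 0.0111). Msln (chr17:25748613-25754378), mesothelin, a surface protein that the list of genes of fetal-like or regenerating epithelium includes, had the same order, with 28.6, 32.2 and 38.1 CPM, 10.6, 9.99 and 10.8 CPM and 2.43, 2.88 and 1.08 CPM. Its log2 fold change was 1.66 ± 0.22 (adjusted p 0.0111). Slc30a10 overlaps Gm2061 and Gpx2 overlaps Fntb on the opposite strand. The calls of Slc30a10 and Msln were lost without degradable replicate 2 (0.0596 and 0.0678). Msln, Anxa10 and Ly6d were the 3 of 19 tested members of that list that rose, none fell and the median was -0.02. Anxa10, an annexin, and Ly6d were below 5 CPM. Ly6a, the best-known marker of the fetal-like state, was at 83.8, 98 and 109 CPM and 97.2, 119 and 104 CPM with overlapping groups (log2 fold change -0.14 ± 0.28, adjusted p 0.846). Without degradable replicate 2 none of the 3 passed, and without non-degradable replicate 1 or 3 or degradable replicate 3 only 1 did.

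Immediate early genes, which cells switch on within minutes of a stimulus, varied strongly among the libraries of a gel. Their mean log2 CPM was 5.67, 5.29 and 6.55 in the non-degradable and 6.39, 6.48 and 6.78 in the degradable libraries, so non-degradable replicate 3 lay within the range of the degradable gel. Of 30 tested genes, 2 fell, none rose, the median was -0.43 and 3 were above 0. Fosl2, an AP-1 subunit, was at 97.9, 95.4 and 123 CPM against 179, 154 and 190.4 CPM (log2 fold change -0.72 ± 0.11, adjusted p 0.0152). Nr4a2, a nuclear receptor, was at 14.3, 14.3 and 17 CPM against 23.5, 20.3 and 20.9 CPM (adjusted p 0.0366), a call lost in 5 of 6 fits without 1 library (up to 0.164). In both the gels were separate. Fos, another AP-1 subunit, was at 912, 488 and 2139 CPM and 1250.2, 963 and 1608 CPM, with the highest and the lowest value both in the non-degradable gel (log2 fold change -0.11 ± 0.45, adjusted p 0.931). Egr1 was at 909, 681 and 1622 CPM and 1304, 1254 and 1758 CPM, again with overlapping groups (log2 fold change -0.43 ± 0.36, adjusted p 0.61). Without non-degradable replicate 3, 12 of the 30 fell, and without non-degradable replicate 1 none did.

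Feedback inhibitors of ERK signalling, which growth factor signals switch on, fell in 2 of 18 tested genes, with a median of -0.18. Spry1 was at 39.1, 30.3 and 47.2 CPM against 79, 75.2 and 73.2 CPM (log2 fold change -0.96 ± 0.14, adjusted p 0.0133). Errfi1, an inhibitor of the EGF receptor, was at 113, 89.8 and 218 CPM against 279, 326 and 390.4 CPM (log2 fold change -1.24 ± 0.26, adjusted p 0.0474). For both genes the non-degradable libraries were the lower, and Errfi1 was lost in 5 of 6 fits without 1 library (up to 0.193). Neither passed without degradable replicate 2 or non-degradable replicate 1, and without non-degradable replicate 3 the count was 5. Among 10 EGF receptors and ligands none passed. The ligand Hbegf was at 87.8, 47.2 and 192 CPM against 251, 247 and 325 CPM (adjusted p 0.139), and Areg was at 98.9, 100.5 and 153 CPM against 181, 219 and 191 CPM (adjusted p 0.156).

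Few genes of stem cell identity and division passed the test. Of 19 crypt base stem cell genes, Axin2 and Cdca7 fell, none rose and the median was -0.16. Without overlap 7 of the 19 were lower and 0 higher, where 9.02% and 10% of all tested genes were. Axin2, a feedback inhibitor of Wnt signalling, was at 469.7, 424 and 490.1 CPM against 681, 575 and 711 CPM (log2 fold change -0.51 ± 0.09, adjusted p 0.0241). It was also the only one of 18 Wnt targets that passed. Lgr5, the receptor that marks crypt base stem cells, was at 212, 181 and 201 CPM against 182, 128 and 155 CPM, with groups that overlapped only at the edge (log2 fold change 0.36 ± 0.13, adjusted p 0.252). Ascl2, a stem cell transcription factor, overlapped at 27.7, 24.1 and 25.9 CPM and 27.6, 32.2 and 27 CPM (adjusted p 0.525), and Olfm4 overlapped at 33.7, 17.3 and 32 CPM and 42.8, 29.6 and 41.3 CPM (adjusted p 0.477). Axin2 did not pass without non-degradable replicate 1 or 2 or degradable replicate 1 or 3 (up to 0.0909), and Cdca7 in no fit without 1 library (up to 0.129).

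Genes of DNA replication and of mitosis were all on the lower side of 0 by small amounts. Of 28 replication genes none was above 0 and the median was -0.24, and of 25 mitosis genes none was above 0 and the median was -0.18. Lower without overlap were 17 of the replication and 10 of the mitosis genes, where 9.02% of all tested genes were. The mean log2 CPM of the replication list was 6.33 to 6.54 in non-degradable and 6.60 to 6.76 in degradable PEG, and that of the mitosis list 6.60 to 6.88 and 6.85 to 7.04. Chaf1b, a chromatin assembly factor, was the only one that passed, at 76, 72.4 and 71.1 CPM against 90.3, 101 and 88.2 CPM (log2 fold change -0.35 ± 0.07, adjusted p 0.0352), and it was lost in 4 of 6 fits (up to 0.109). Mki67, the antigen of dividing cells, overlapped at 804, 913 and 644 CPM and 955, 836 and 696 CPM (log2 fold change -0.08 ± 0.14, adjusted p 0.822). Cdkn1a, an inhibitor of the cell cycle, overlapped between the gels as well (log2 fold change 0.12 ± 0.16, adjusted p 0.746). None of 19 cell cycle inhibitors and cyclins passed.

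Secretory lineages showed 1 called gene. Nts, the gut hormone neurotensin made by enteroendocrine cells, was at 3.01, 2.74 and 4.26 CPM against 0.657, 0.99 and 0.724 CPM (log2 fold change 2.07 ± 0.23, adjusted p 0.00994), and it passed in all 6 fits without 1 library. The other 16 of 17 tested enteroendocrine genes did not pass, and the median of the list was -0.50, opposite to Nts. Of the 17, 5 were lower and 1 higher without overlap, where 9.02% and 10% of all tested genes were. Chga, the granule protein of enteroendocrine cells, was at 1.22, 0.661 and 1.12 CPM and 1.71, 1.61 and 1.47 CPM (adjusted p 0.294). None of 16 Paneth, 14 goblet and 6 tuft cell genes passed, with medians of -0.11, 0.22 and -0.03. Lyz1, the lysozyme of Paneth cells, was at 123, 58.4 and 71.1 CPM and 87.8, 53.2 and 51.1 CPM with overlapping groups (adjusted p 0.602). Muc2, the goblet cell mucin, was at 3.17, 3.0 and 1.31 CPM and 1.39, 1.04 and 0.724 CPM (log2 fold change 1.24 ± 0.45, adjusted p 0.245).

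Among genes for cutting and gripping the matrix no call was made. None of 27 matrix proteases, 15 protease inhibitors, 16 integrins and related receptors and 27 focal adhesion genes passed the test, with medians of -0.01, 0.07, -0.01 and -0.05. Members without overlap between the gels were 3 proteases, all lower in non-degradable PEG, 2 inhibitors, both higher, 3 higher and 3 lower among the 16 integrins, and 2 higher and 3 lower among the focal adhesion genes. Of all tested genes, 10% were higher and 9.02% lower without overlap, so the protease and inhibitor counts are near that share. Mmp14, a membrane-bound protease of collagen, was at 89.7, 79.4 and 64.5 CPM and 107, 88.8 and 68.6 CPM (log2 fold change -0.18 ± 0.18, adjusted p 0.678). Mmp7, matrilysin, was at 28.2, 21.3 and 18.8 CPM and 38.6, 25.9 and 25 CPM (log2 fold change -0.39 ± 0.21, adjusted p 0.41). Both proteases overlapped between the gels, and replicate 1 was the highest library of each gel. Itgb1, the beta-1 chain shared by most integrins, was at 369, 373 and 365 CPM and 386, 335 and 365 CPM (log2 fold change 0.03 ± 0.07, adjusted p 0.881), among the smallest standard errors here. Of 21 basement membrane and matrix genes, Nid1 rose and Thbs1 fell, with a median of 0.16. Nid1, nidogen, which links laminin to collagen IV, was at 14.3, 14.2 and 14 CPM against 7.84, 6.21 and 7.86 CPM (log2 fold change 0.95 ± 0.14, adjusted p 0.0133), nearly constant within the non-degradable gel. It was lost without non-degradable replicate 1 or degradable replicate 2 (up to 0.0622).

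Keratins and cell junctions gave 1 gene in each direction among 31 tested. The gene that rose was Krt20. Krt18, a keratin of simple epithelia, was at 502, 492 and 622 CPM against 733, 924 and 808 CPM and fell (log2 fold change -0.61 ± 0.13, adjusted p 0.0435). Its partner Krt8 was at 1028, 932 and 1254 CPM against 1297, 1565 and 1469.7 CPM, separate but with an adjusted p of 0.105. Of 24 apoptosis genes, Pmaip1 and Casp4 fell and Bcl2l15 rose, with a median of -0.08. Pmaip1, which encodes the death promoter Noxa and was also the only one of 25 p53 targets that passed, was at 57.9, 54.9 and 97.6 CPM against 134, 133 and 149 CPM (log2 fold change -0.98 ± 0.20, adjusted p 0.0405). Krt18 was lost in 4 of 6 fits without 1 library (up to 0.184) Pmaip1 in 5 (up to 0.166) and Bcl2l15 in 5 (up to 0.199), and Bcl2l15 was not called with upper-quartile scaling or in the fit of the 6 PEG libraries alone.

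Of the other leading genes that fell, Cfap43 (chr19:47736857-47919287), a protein of cilia and flagella, was at 13.8, 13.7 and 18.2 CPM against 28.5, 34.1 and 40 CPM (log2 fold change -1.17 ± 0.14, adjusted p 0.00994) and passed in all 6 fits without 1 library. It overlaps Gsto1 and Gsto2 on the opposite strand. Wnt6, a Wnt ligand, was at 3.83, 4.22 and 3.0 CPM in non-degradable PEG, 10.4, 12.7 and 9.77 CPM in degradable PEG and 7.09, 14.6 and 10.1 CPM in Matrigel (log2 fold change between the PEG gels -1.57 ± 0.24, adjusted p 0.0152). Here the non-degradable gel stood below both others. Pthlh, a hormone related to parathyroid hormone, was at 3.62, 3.07 and 4.08 CPM against 8.13, 7.67 and 7.39 CPM (adjusted p 0.0429), and its call was lost in every fit without 1 library (up to 0.156). The call of Wnt6 was lost without non-degradable replicate 1 or degradable replicate 2 (up to 0.0827).

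**Figure D5:**
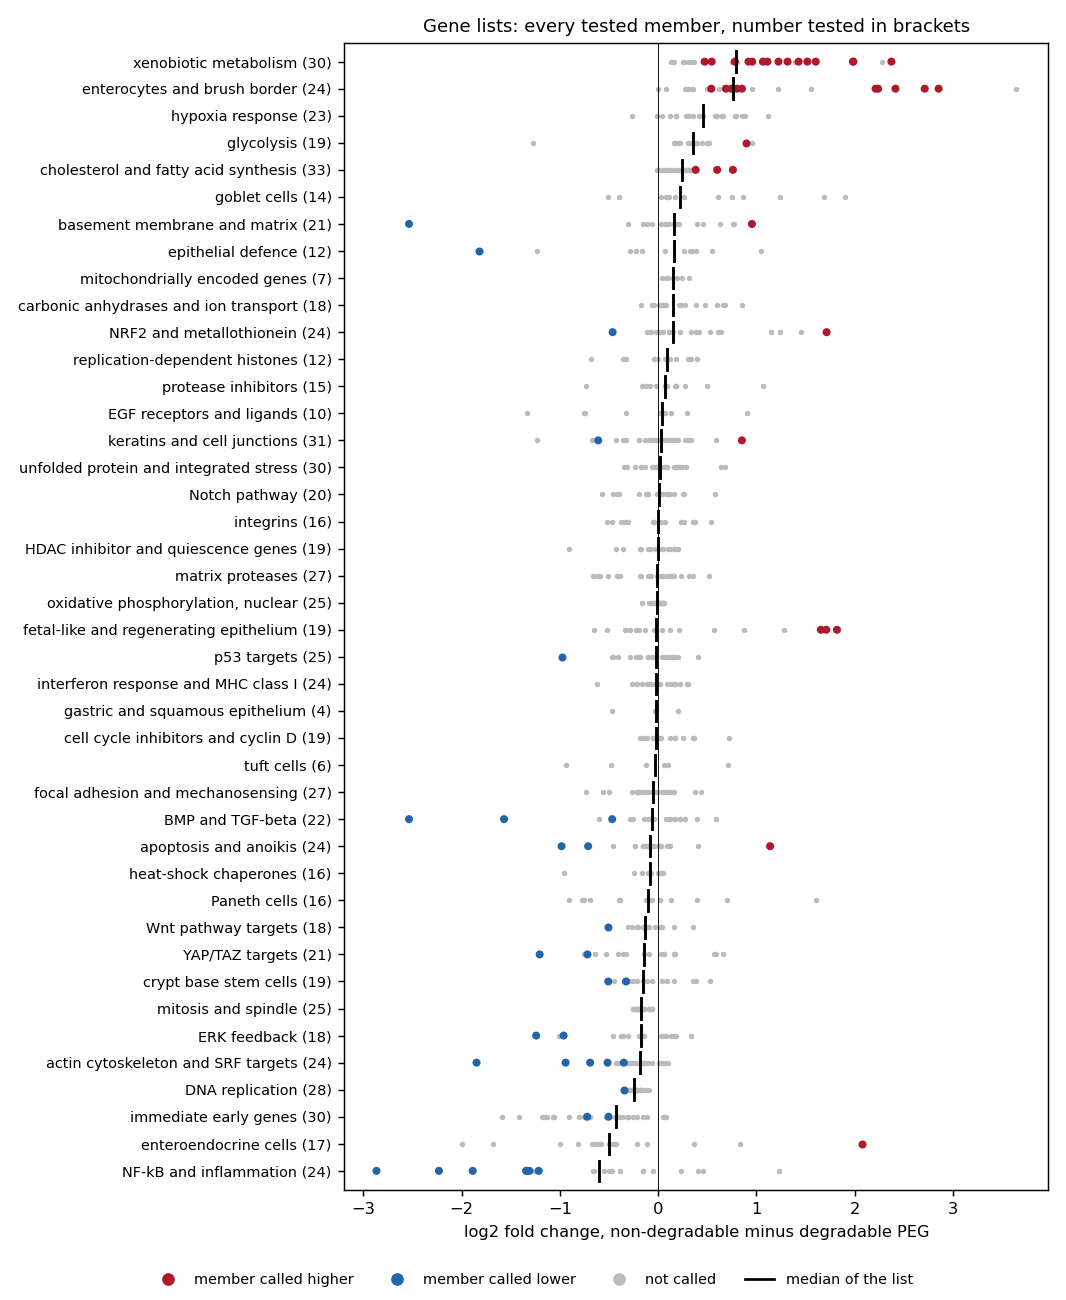
Log2 fold change, non-degradable minus degradable PEG, of every tested member of the gene lists, 1 row per list with the number tested in brackets, 1 point per gene and a bar at the median. The foreign compound (0.79) and enterocyte (0.77) lists have the highest medians and hold most of the called members to the right of 0, and the NF-kB list has the lowest median (-0.60) and 7 called members to the left.

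No gene passed the test in 10 further lists of the 42. These were interferon response (24 tested), Notch pathway (20), unfolded protein and integrated stress response (30), heat-shock chaperones (16), carbonic anhydrases and ion transport (18), nuclear genes of oxidative phosphorylation (25), mitochondrially encoded genes (7) and replication-dependent histones (12). The last lists held genes linked to histone deacetylase inhibitors and quiescence (19) and to gastric and squamous epithelium (4). Some of these lists still leaned to one side. Of the carbonic anhydrase and ion transport genes 15 of 18 were above 0. Without overlap 5 of these 18 were higher and 0 lower, where 10% and 9.02% of all tested genes were. All 7 mitochondrially encoded genes were above 0, with 0 free of overlap. Of the heat-shock chaperones 13 of 16 were below 0, with 2 lower and 0 higher without overlap.

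Matrigel was not on one side of the PEG gels. Of the 121 genes that rose in non-degradable PEG, the Matrigel mean lay above both PEG gels for 18, between them for 61 and below both for 42, and on the log scale it was nearer to the degradable gel for 68. Of the 69 that fell, it lay above both for 4, between for 31 and below both for 34, and it was nearer to the non-degradable gel for 55. Sis, for example, was at 51.2, 28.5 and 24.2 CPM in Matrigel, close to the non-degradable gel, and Thbs1 at 92.4, 123 and 96 CPM, also near the non-degradable gel. Fmo5 was at 2.36, 1.79 and 1.39 CPM and Tnf at 0.999, 1.81 and 1.7 CPM, below both PEG gels. These positions share libraries with the comparison that called the genes and are given without a test.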

How the data were processed

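Each library came with a deposited table of counts per gene. Per the submitters' processing notes, cutadapt 1.3, STAR 2.4.2a and HTSeq 0.6.1 were used with GRCm38. Per the labels' protocols, the RNeasy Micro kit gave the RNA and a stranded TruSeq mRNA kit the libraries. Which strand setting and annotation the counting used is not given in the sources used here. Each table held 46517 genes and 5 tally rows, which were dropped. Reads without a feature made up 9.20% ± 1.17 (SD, n = 3) of assigned, featureless and ambiguous reads in non-degradable PEG and 9.03% ± 2.00 (SD, n = 3) in degradable PEG. GENCODE M21 on GRCm38 gave symbols and coordinates to 46005 genes.

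The edgeR filterByExpr function kept 14870 genes. Counts were scaled by TMM (trimmed mean of M values) and fitted over all 9 libraries with 1 mean per gel. The edgeR quasi-likelihood test of non-degradable minus degradable PEG was adjusted over all tested genes by the Benjamini-Hochberg method and called at 0.05. The standard error of a change was its absolute size divided by the root of its F statistic. Tools were R 4.3.3, edgeR 4.0.16, DESeq2 1.42.0, pandas 2.3.3 and scipy 1.17.1. On simulated data of this comparison with 14700 genes, the test recovered 78 of 100 genes changed 2-fold and 98 of 99 changed 4-fold, with 11 false calls. Each gene was drawn independently, without variation shared across the genes of a library, so recovery in the real data may be lower.

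Named were the 12 genes of largest change in each direction among called, non-overlapping genes averaging 5 CPM or more and having a symbol, up to 4 called members of each list with the smallest p, and a fixed panel. Any other gene given with values was an example picked after its values were seen. Among these were Mttp, Akp3, Vil1, Ndrg1, Ldha, Tpm1, Actb, Vcl, Cxcl1, Nfkbia, Hbegf, Areg and Krt8. Members and lists were chosen with earlier results of these data known. Of 42 lists, 5 entries matched no gene. The alternatives were DESeq2, 2 other scalings, 2 other filters, a fit of the 6 PEG libraries, a replicate block and leaving out each PEG library. A few list members are not reported here by name.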

Additional observations from a re-analysis of the deposited data

How the results depend on the processing

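Of the 190 genes called, 188 were also called with DESeq2 size factors, 182 of a total of 200 with upper-quartile scaling, 143 of 182 in a fit of the 6 PEG libraries alone and 185 with the DESeq2 Wald test. The DESeq2 Wald test called 509 genes (319 higher, 190 lower), the fit without a filter on low counts 521 (341 higher, 180 lower) and a filter of 10 CPM 100 (58 higher, 42 lower). Leaving out 1 library, which also removes replicates, gave 19 to 143 genes, 4 to 99 higher and 11 to 92 lower. The replicate block called 542 genes (354 higher, 188 lower), among them all 190. Same-numbered libraries of the gels had correlations of their deviations from the gel means of 0.288, 0.0197 and 0.511, and non-degradable replicate 2 correlated better with degradable replicate 1 (0.257) than with its own number, so the numbers are not shown to pair the libraries.

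With 1 library left out, the log2 fold change of 4 genes that did not pass changed sign in at least 1 fit. That of Fos ran from -0.86 to 0.26, that of Mki67 from -0.20 to 0.051, that of Itgb1 from -0.032 to 0.070 and that of Cdkn1a from -0.017 to 0.22, where the reported values were -0.11, -0.08, 0.03 and 0.12. For the named genes, 698 further values kept their direction and side of the threshold, 170 lost the call and 5 gained it. Of the list medians, 20 moved by more than 1 SD and 525 by less, and 43, in 19 of the lists, crossed or reached 0, none from a reported size above 0.16. Of the counts of called list members 213 moved by over 1.5 times and 879 did not. The causes were not tested. No member of the gastric and squamous list was left under the filter of 10 CPM. With 38016227 to 44816344 assigned reads per library and 3 libraries per gel, standard errors of the log2 fold changes had a median of 0.11, and on simulated data 78 of 100 genes changed 2-fold were recovered. The simulated libraries lacked variation shared across genes, so this recovery may be too high for the real ones.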

Other observations

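Gene families were named after the calls were seen. Many of their called members, and all 4 chemokines that fell, were already in the lists, so these counts are no separate support. Of 40 tested cytochromes P450, 10 rose in non-degradable PEG and none fell, with a median log2 fold change of 0.42. Of 9 UDP-glucuronosyltransferases 5 rose, of 8 carboxylesterases 3, of 6 sulfotransferases 2, of 3 alcohol dehydrogenases 2 and of 10 aldo-keto reductases 2, and none of these fell. Of 244 solute carriers 8 rose and none fell, with a median of 0.09, where 0.814% of all tested genes rose and 0.464% fell. These 8 included Slc40a1, the iron exporter ferroportin, Slc39a5, a zinc importer, and Slc3a1 and Slc7a9, the 2 chains of a transporter for cystine and basic amino acids. Slc7a9 was at 7.61, 6.63 and 9.54 CPM in non-degradable and 4.0, 3.09 and 4.01 CPM in degradable PEG (edgeR adjusted p 0.0453). Of 13 tested chemokines 4 fell and none rose, with a median of -0.55.

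Further called genes were chosen after their values were seen, and none was in the set that passed whichever PEG library was left out. Creb3l3 and Nr1i3 are transcription factors and were low. Creb3l3, a factor of lipid metabolism in liver and gut, was at 4.28, 2.36 and 5.46 CPM against 0.868, 0.618 and 1.21 CPM (log2 fold change 2.16 ± 0.36, edgeR adjusted p 0.0214). Nr1i3, the nuclear receptor CAR, which induces enzymes for foreign compounds, was at 0.713, 0.661 and 0.596 CPM against 0.158, 0.124 and 0.129 CPM (adjusted p 0.0189). Npc1l1, which takes up cholesterol, was at 63.9, 47.8 and 79.5 CPM against 29.3, 28.2 and 38.5 CPM (adjusted p 0.0371), and Abcg5, part of the pump that returns sterols to the lumen, at 70, 69.1 and 89.3 CPM against 46.3, 44.7 and 45.2 CPM (adjusted p 0.0333). For each of these the gels did not overlap. Reg1, a secreted lectin of regenerating gut, was at 3.59, 1.8 and 3.14 CPM against 0.421, 0.297 and 0.129 CPM (adjusted p 0.0257). On the lower side, Clca3b was at 637, 551 and 514 CPM against 1302, 966 and 937 CPM (adjusted p 0.0152), and Tnfrsf11b, the decoy receptor osteoprotegerin, at 10.6, 11.4 and 12.7 CPM against 24, 18.1 and 21.1 CPM (adjusted p 0.0176).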
